A study of Bos taurus with 45 samples.

Results

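Among bovine embryos cultured without CSF2, those whose pregnancy was lost between day 30 and day 60 of gestation were compared with those that gave no pregnancy at day 30. The comparison took the vehicle libraries with a total of 1000000 counts or more, which were 18 of the 45 libraries in the series. It set 4 embryos of lost pregnancies (replicates 2, 3, 4 and 6) against 14 embryos of pregnancies not established (replicates 4, 11 and 13 to 24). The depth minimum removed 2 of the 20 vehicle embryos with these outcomes, lost replicate 5 with 687331 counts and not established replicate 29 with 475278 counts.

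Each library held RNA of a single demi-blastocyst, a portion of a day 7 blastocyst cut by micro-blade, while its sister portion went to a recipient cow. All embryos were produced in vitro with X-sorted sperm, which yields female embryos, and both groups received vehicle in serum-free medium from day 5 to day 7. In the rest of the series the embryos received 10 ng/ml of CSF2, a cytokine, in the same days, or were vehicle embryos of pregnancies kept through day 60. When the cut was uneven, the smaller or less intact portion was the one sequenced, per the labels, so a library can hold unequal parts of the blastocyst's cell types. In RNA from such a mixed sample, fewer cells of a type and less RNA per cell cannot be told apart.

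The day 7 blastocyst has an outer trophectoderm, from which the fetal placenta grows, and an inner cell mass, which gives the embryo proper and the hypoblast. After hatching the bovine conceptus elongates, and its trophectoderm secretes interferon tau, the signal by which the cow recognises pregnancy. Failure before the first examination therefore covers hatching, elongation and recognition, whereas loss between the examinations falls in the time when the placentomes develop. The files name genes by Ensembl identifiers that could not be paired with symbols, so no lineage marker or pathway is reported, and the labelled presence of trophectoderm and inner cell mass cells was not checked against markers.

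Among the libraries that passed the depth minimum, the totals of the lost embryos lay inside the range of the not established embryos. Totals were 6381858, 6304431, 4317470 and 7161723 counts in lost replicates 2, 3, 4 and 6, and ran from 3940101 to 7544831 counts in the not established embryos, with a median of 6124094. The mean difference of 157853 counts was no larger than relabelled embryos often gave (exact permutation test, two-sided, p = 0.837). Libraries were kept by this same total, so the test describes the kept libraries and does not show equal depth. With the 2 shallow libraries kept the difference was -552400 counts.

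A gene is called read in a library where it has 5 or more counts. Lost replicates 2, 3, 4 and 6 read 4153, 3481, 1585 and 3753 genes, and the not established embryos read between 1646 and 5190 genes, with a median of 3581. Lost replicate 4 thus read fewer genes than any other of the 18, while the other 3 lost embryos lay inside the range of the not established embryos. The group means were 3243 ± 1139 genes (SD, n = 4) and 3424 ± 1026 genes (SD, n = 14), which did not differ beyond the spread (exact permutation test, two-sided, p = 0.743). Without lost replicate 4 the difference in means turned from -181 to 372 genes. With every library thinned to 3940101 counts the means were 3136 ± 1076 genes (SD, n = 4) and 3322 ± 974 genes (SD, n = 14; exact permutation test, two-sided, p = 0.725).

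A set of 222 genes was read in all 18 embryos and held a large part of the RNA. These common genes took 42.6%, 40.9%, 56.8% and 41.1% of the counts in lost replicates 2, 3, 4 and 6, and from 38.9% to 57.5% in the not established embryos. Lost replicate 4 stood apart from the other lost embryos, near the top of the not established range. The set can hold only genes that this embryo read, so its share is not an observation independent of its 1585 genes read. The means were 45.4% ± 7.66 (SD, n = 4) and 46.3% ± 5.29 (SD, n = 14; exact permutation test, two-sided, p = 0.818). The 100 most abundant genes of each library held 42.3% ± 9.24 (SD, n = 4) of the counts in the lost group against 43.5% ± 6.23 (SD, n = 14) in the other (exact permutation test, two-sided, p = 0.783). Over these 5 measures the Benjamini-Hochberg adjusted p was 0.837 for each.

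**Figure D1:**
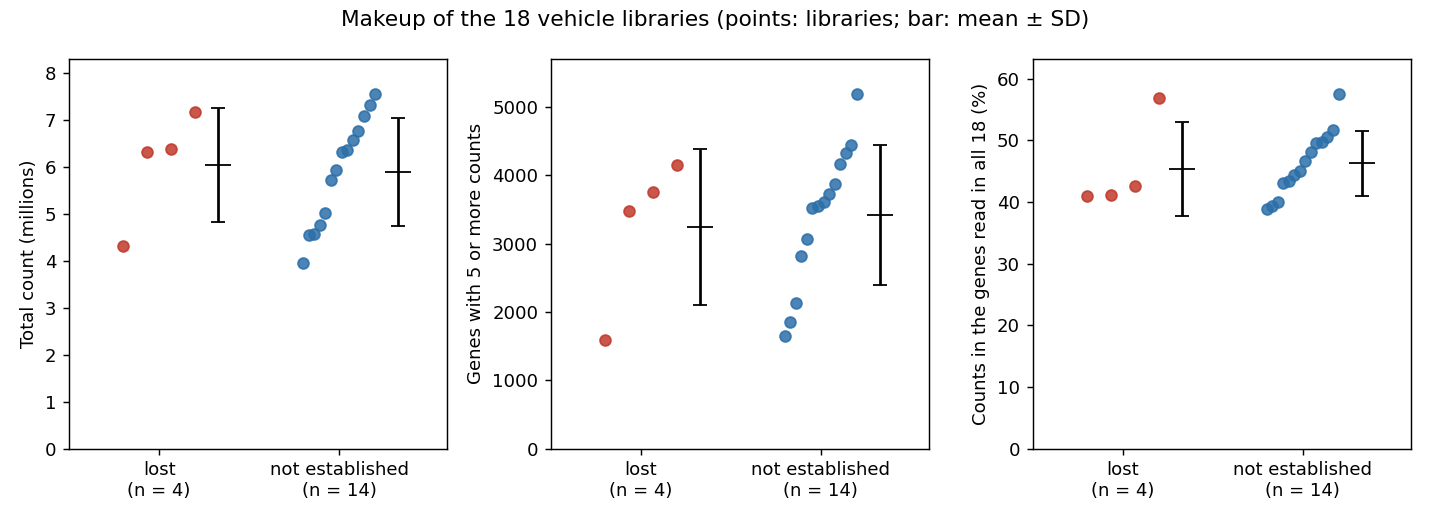
Total count (axis in units of 1000000), number of genes with 5 or more counts, and percent of counts in the 222 genes read in all 18 libraries, for the 4 lost and 14 not established vehicle embryos. Points are libraries and bars are means ± SD; lost replicate 4, with 1585 genes and 56.8% of counts in the common genes, lies away from the other lost embryos, and the groups overlap in each panel.

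The embryos were next compared pair by pair. A pair was first described by the genes it shared, as the percent of genes read in both among those read in either. This share had a median of 31.2% over the 6 pairs of lost embryos, 35.1% over the 91 pairs of not established embryos, and 36.9% over the 56 pairs that cross the groups. Crossing the groups thus did not give the lowest median. The 3 lowest values among the lost pairs were those that include lost replicate 4, whose median share with all other embryos was 23.7%. Not established replicates 24 and 19, which read 1646 and 1851 genes, had medians nearly as low, at 24.7% and 26.2%. Pearson's r of log2(CPM + 1) over the 222 common genes had medians of 0.57, 0.64 and 0.62 for the same 3 kinds of pair (CPM is counts scaled to a library total of 1000000). Over the 1035 genes read in 14 or more of the 18 embryos the medians were 0.34, 0.32 and 0.32. Pairs share libraries and genes, so these values describe the embryos and carry no test. The highest r over the common genes was 0.83, and no 2 libraries held identical counts.

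**Figure D2:**
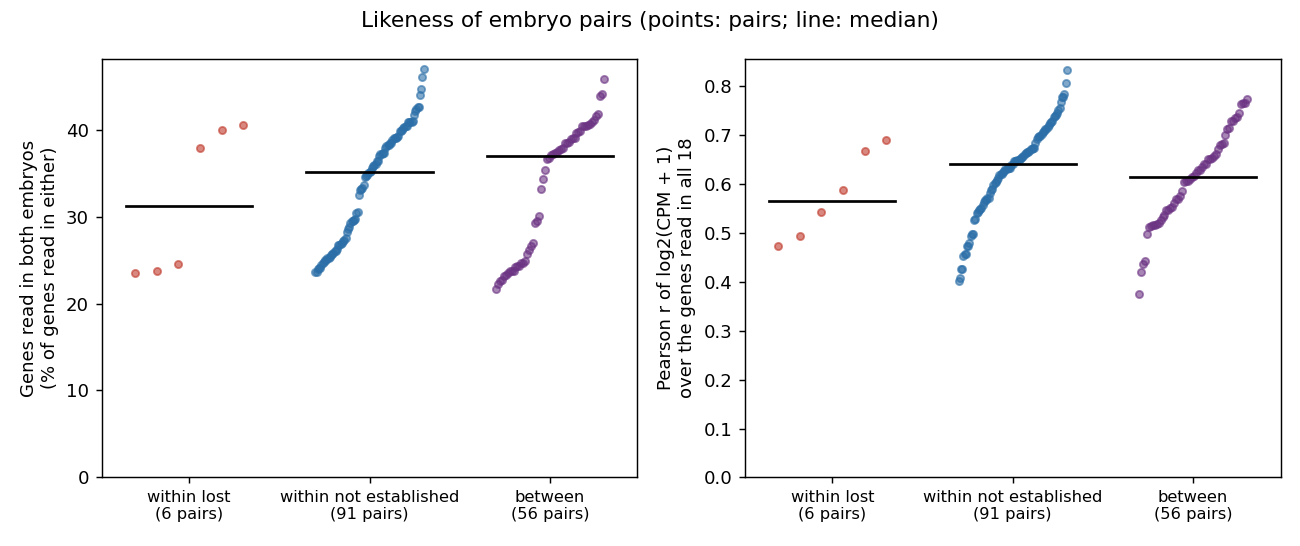
Likeness of every pair of the 18 embryos, as the percent of genes read in both among those read in either (left) and as Pearson's r of log2(CPM + 1) over the 222 genes read in all 18 (right). Points are pairs and lines are medians; the medians on the left are 31.2% within lost, 35.1% within not established and 36.9% between the groups.

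No gene was called different between lost and not established pregnancies by edgeR's quasi-likelihood test. Of 5576 genes tested, 0 (0%) had a Benjamini-Hochberg adjusted p below 0.05, and the smallest adjusted p was 0.334. At an unadjusted p below 0.05 there were 530 genes (9.51%), of which 40 (0.717%) were higher and 490 (8.79%) lower in lost embryos. limma voom with sample quality weights called 7 genes (0.126%), 6 higher and 1 lower, and DESeq2 called 445 (7.98%), 3 higher and 442 lower. Only 2 genes, 1 in each direction, were called by both limma voom and DESeq2. DESeq2 gave no adjusted p for 1351 of the tested genes.

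The genes with a small p were mostly those that few embryos read. The filter on low counts kept only genes read in 4 or more of the 18 embryos. Among the 613 tested genes read in 4 embryos, 30.3% had an unadjusted p below 0.05 in edgeR. That share was 13.1% of 2262 genes read in 5 to 8 embryos, 2.4% of 1666 genes read in 9 to 13, 0.738% of 813 genes read in 14 to 17, and 0.901% of the 222 common genes. The fitted log2 change (lost minus not established) had a median of -1.72 in the first of these classes and -0.03 in the last. In the common genes 202 of 222 changes (91%) were within 1 on the log2 scale, against 118 of 613 (19.2%) in the genes read in 4 embryos. The median over all genes tested was -0.36.

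**Figure D3:**
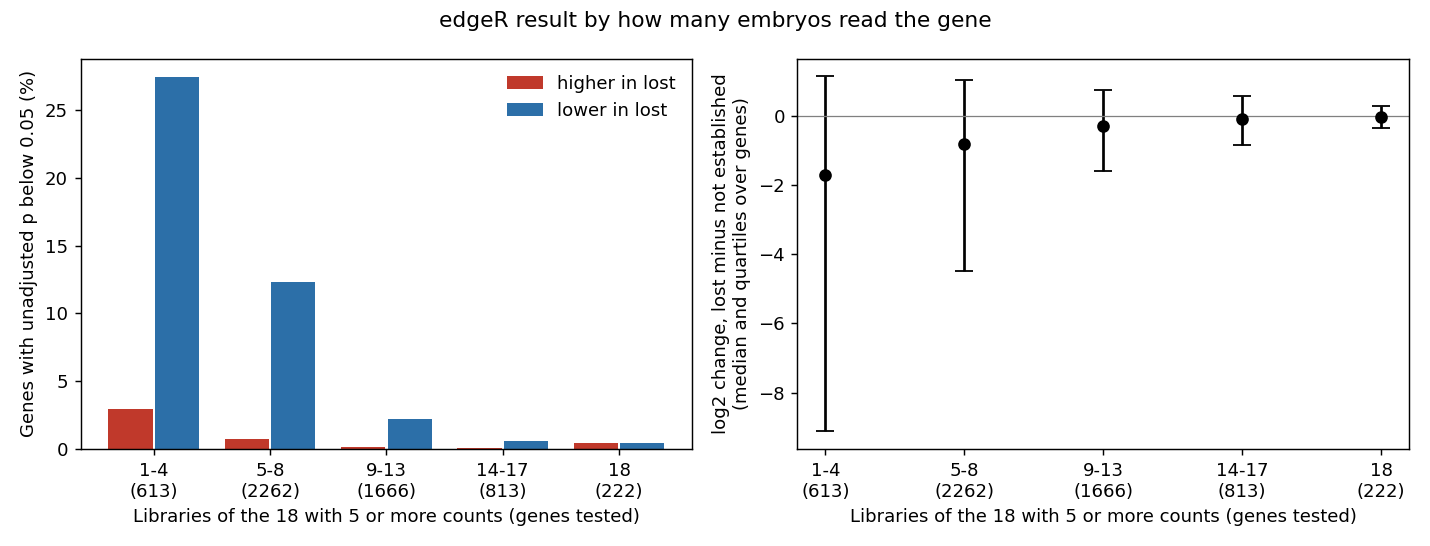
Left, percent of tested genes with an unadjusted edgeR p below 0.05, higher or lower in lost embryos, by how many of the 18 libraries read the gene. Right, median and quartiles of the fitted log2 change (lost minus not established) in the same classes. The class marked 1-4 holds genes read in 4 libraries. The median is -1.72 in that class and -0.03 for the 222 genes read in all 18.

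The common genes varied widely among embryos of the same outcome. On the log2(CPM + 1) scale the median SD of a common gene was 1.21 among the 14 not established embryos and 0.94 among the 4 lost embryos. The median size of the difference between the group means was 0.46, and it exceeded the gene's SD among not established embryos for 27 of the 222 genes. A difference above 1 was found for 26 genes higher and 23 lower in lost embryos, and the full range ran from -3.01 to 2.20. limma voom gave these genes a median standard error of 1.25 on the log2 scale, so that the 95% interval of a typical common gene spanned 5.48-fold to either side of its estimate. For genes read in 9 to 13 embryos the interval spanned 37.1-fold to either side. limma voom draws the variance of each gene towards that of all genes tested, and these intervals are not adjusted for the number of genes. They describe the fit and are not limits of detection.

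Most genes with a small p on the lower side were ones that the lost libraries did not read at all. Of the 490 genes lower at an unadjusted p below 0.05, 404 had no count in any of the 4 lost libraries and 464 were read in none of them. Those 404 are also all of the tested genes without a count in lost embryos, 7.25% of 5576. They passed the filter on low counts through the not established embryos alone, and 0 of the tested genes were unread in all 14 not established embryos. With no filter on low counts edgeR called 420 genes higher and 7 lower, 368 of the 420 being read in a single lost library. The balance of 40 higher and 490 lower genes is therefore given as a description, and nothing is read from it. The 4 vehicle embryos of maintained pregnancies with 1000000 counts or more, which took no part in this test, had no count for 395 of the same 5576 genes (7.08%). The 404 genes were read in a median of 5 of the 14 not established embryos, with a range from 4 to 10. In 210 of them a single not established embryo held most of the group's summed CPM. Of the 442 genes that DESeq2 called lower, 306 had no count in the lost libraries, and the 442 were read in a median of 6 not established embryos.

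The CSF2 embryos, which did not enter the fit, gave a view of the same 404 genes. The 1 lost embryo cultured with CSF2 read 29.5% of them. Among the 12 not established CSF2 embryos with 1000000 counts or more, the share read ran from 7.18% to 40.8% with a median of 26.1%, and 8 of them lay below the lost embryo. Over all 5576 genes the lost CSF2 embryo read 50.9%, also above the median of 48.2% in the not established CSF2 embryos (16.1% to 65.7%). These values rest on 1 lost library and have no test. For the 40 genes higher at an unadjusted p below 0.05, the lost CSF2 embryo lay above the mean log2(CPM + 1) of the not established CSF2 embryos in 15 (37.5%), against 40.7% of all genes tested. For the 490 genes lower at that p it lay above the mean in 135 (27.6%) and below it in 342. Among the 1035 genes read in 14 or more of the 18 embryos, it lay above the mean in 65.2%. Of the 50 such genes with the smallest p in each direction, it lay above in 68% of the higher and 64% of the lower. The share above thus differed with how many embryos read a gene, and the 27.6% is not read as a carry-over.

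Presence and absence of each gene were also tested directly. Of 10604 genes read in at least 1 of the 18 embryos, 6224 were read in both groups, 3893 in not established embryos alone and 487 in lost embryos alone, in groups of 14 and 4 embryos. Of the 487 genes, 438 were read in a single lost embryo. Fisher's exact test on the number of embryos that read a gene called 0 genes at an adjusted p below 0.05. The smallest unadjusted p that 4 against 14 embryos allow is 0.000327. It was reached by 1 gene, with an adjusted p of 1, and 70 genes at that p would have been needed for an adjusted p below 0.05. At an unadjusted p below 0.05 there were 115 genes (1.08%), 88 read more often and 27 less often in lost embryos. The p that can be reached differs by direction, since a gene read in 2 lost and 0 not established embryos has p = 0.0392 by Fisher's exact test, whereas a gene read in no lost embryo needs 10 not established embryos to pass. Nothing is read from the balance of 88 and 27. A single gene was read in all 4 lost and in none of the 14 not established embryos. Its counts were low, from 6 to 237 in lost libraries, and it had no count in the lost CSF2 embryo. The filter on low counts removed this gene, so its level was not tested. No gene was read in all 14 not established and no lost embryo, and 11 genes were read in 10 or more not established and no lost embryo.

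Complete separation of the groups by level was rare. The lowest lost embryo lay above the highest not established embryo for 3 tested genes (0.0538%), and the highest lost embryo lay below the lowest not established embryo for 1 (0.0179%). limma voom called all 4 of these genes. For the 1 lower gene the separation lay at the floor, with 0.232 CPM in the highest lost embryo and 0.317 CPM in the lowest not established embryo. Both are levels below 5 counts, and 12 of the 14 not established embryos read the gene. In the lost CSF2 embryo, 2 of the 3 higher genes had no count, and the third was at 14.1 CPM against a median of 0 CPM in the not established CSF2 embryos. The 1 lower gene was at 4.86 CPM in the lost CSF2 embryo and had a median of 37.9 CPM in the not established CSF2 embryos. For these 2 genes the lost CSF2 embryo thus lay on the same side of the median as the lost vehicle embryos, and for the other 2 it did not.

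The genes with the smallest edgeR p in each direction show what such differences rest on, 2 higher and 2 lower in lost embryos. They were ranked by these data, so their levels are a description. ENSBTAG00000022199 was 1 of the 3 genes that lay wholly higher in lost embryos. It stood at 546, 176, 212 and 597 CPM in lost replicates 2, 3, 4 and 6. Of the 14 not established embryos 9 had no count, the median was 0 CPM, and the highest was replicate 18 with 24.6 CPM. All 4 lost embryos were thus above all 14 not established embryos. The means were 383 ± 220 CPM (SD, n = 4) and 2.42 ± 6.62 CPM (SD, n = 14), a 158-fold difference. Replicate 18 held 72.6% of the not established sum, and without it the edgeR log2 change went from 7.29 to 8.91. The adjusted p was 0.334 with edgeR (log2 change 7.29), 0.0137 with DESeq2 and 1.43e-05 with limma voom (log2 change 10.06, SE 1.57). Outside the comparison the gene did not follow the outcome in the same way. The lost CSF2 embryo had no count, and the 12 not established CSF2 embryos ran from 0 to 826 CPM with a median of 7.42 CPM. The 4 maintained vehicle embryos ran from 0 to 44.3 CPM.

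ENSBTAG00000008793 was high in 3 of the 4 lost embryos. Lost replicates 3, 4 and 6 had 843, 359.7 and 185 CPM, and lost replicate 2 had no count. In the not established embryos 11 of 14 had no count, and the highest was replicate 23 with 16.02 CPM. The groups overlapped only through lost replicate 2, which lay at 0 with most of the not established embryos. The means were 347 ± 362 CPM (SD, n = 4) and 1.45 ± 4.33 CPM (SD, n = 14), a 239-fold difference with an adjusted p of 0.334 in edgeR (log2 change 7.8), 0.0336 in DESeq2 and 0.26 in limma voom. Of the summed CPM of the 4 lost embryos, 60.7% came from replicate 3. Of the not established sum, 78.9% came from replicate 23, and without it the edgeR log2 change was 9.92. The lost CSF2 embryo had no count here as well, and the highest of the 12 not established CSF2 embryos had 35.6 CPM.

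ENSBTAG00000021140 had no count in the 4 lost embryos. In the not established embryos it was read in 8 of 14, with a median of 2.92 CPM and a highest level of 1285 CPM in replicate 24. The other 6 not established embryos had no count either, so the groups overlapped at 0. The not established mean of 190 ± 421 CPM (SD, n = 14) was drawn from few embryos, replicate 24 holding 48.4% of the sum and replicate 16 standing at 1044 CPM. The level that 3 counts over all lost libraries would give, 0.124 CPM, was 1527-fold below this mean, a bound that covers counting error only. That fold describes the mean and not a typical embryo, since the not established median was 2.92 CPM and 6 of the 14 were at 0. The adjusted p was 0.334 in edgeR, 0.575 in limma voom and 2.5e-11 in DESeq2. DESeq2 fitted a log2 change of -23.97, which a group without any count leaves without a lower bound, so its small p is not read as evidence. Read in 8 not established embryos, the gene fell short of the 10 that Fisher's exact test needs for an unadjusted p below 0.05. The lost CSF2 embryo had 20.4 CPM, above 8 not established CSF2 embryos that had no count.

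ENSBTAG00000001181 was likewise without a count in the 4 lost embryos. It was read in 8 of 14 not established embryos, with a median of 61.8 CPM and a highest level of 899.7 CPM in replicate 14, and 6 had no count. The not established mean was 182 ± 270.2 CPM (SD, n = 14), 1470-fold above the same bound of 0.124 CPM. This fold too describes the mean, and replicate 14 held 35.2% of the sum. The adjusted p was 0.334 in edgeR, 0.351 in limma voom and 1.7e-23 in DESeq2. The DESeq2 log2 change of -26.93 was again fitted against a group without any count, and its small p is likewise not read as evidence. This gene too was read in fewer than the 10 not established embryos that Fisher's exact test needs. The lost CSF2 embryo had 28.8 CPM, and the 12 not established CSF2 embryos had a median of 2.53 CPM. Both of these genes, which DESeq2 called lower in the lost vehicle embryos, were thus present in the 1 lost CSF2 embryo.

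The 2 shallow vehicle libraries left out by the depth minimum, lost replicate 5 and not established replicate 29, had no count of any of these 4 genes. These libraries read 164 and 136 genes, with 99.3% and 99.9% of their counts in their 100 most abundant genes, so nothing is read from these zeros.

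**Figure D4:**
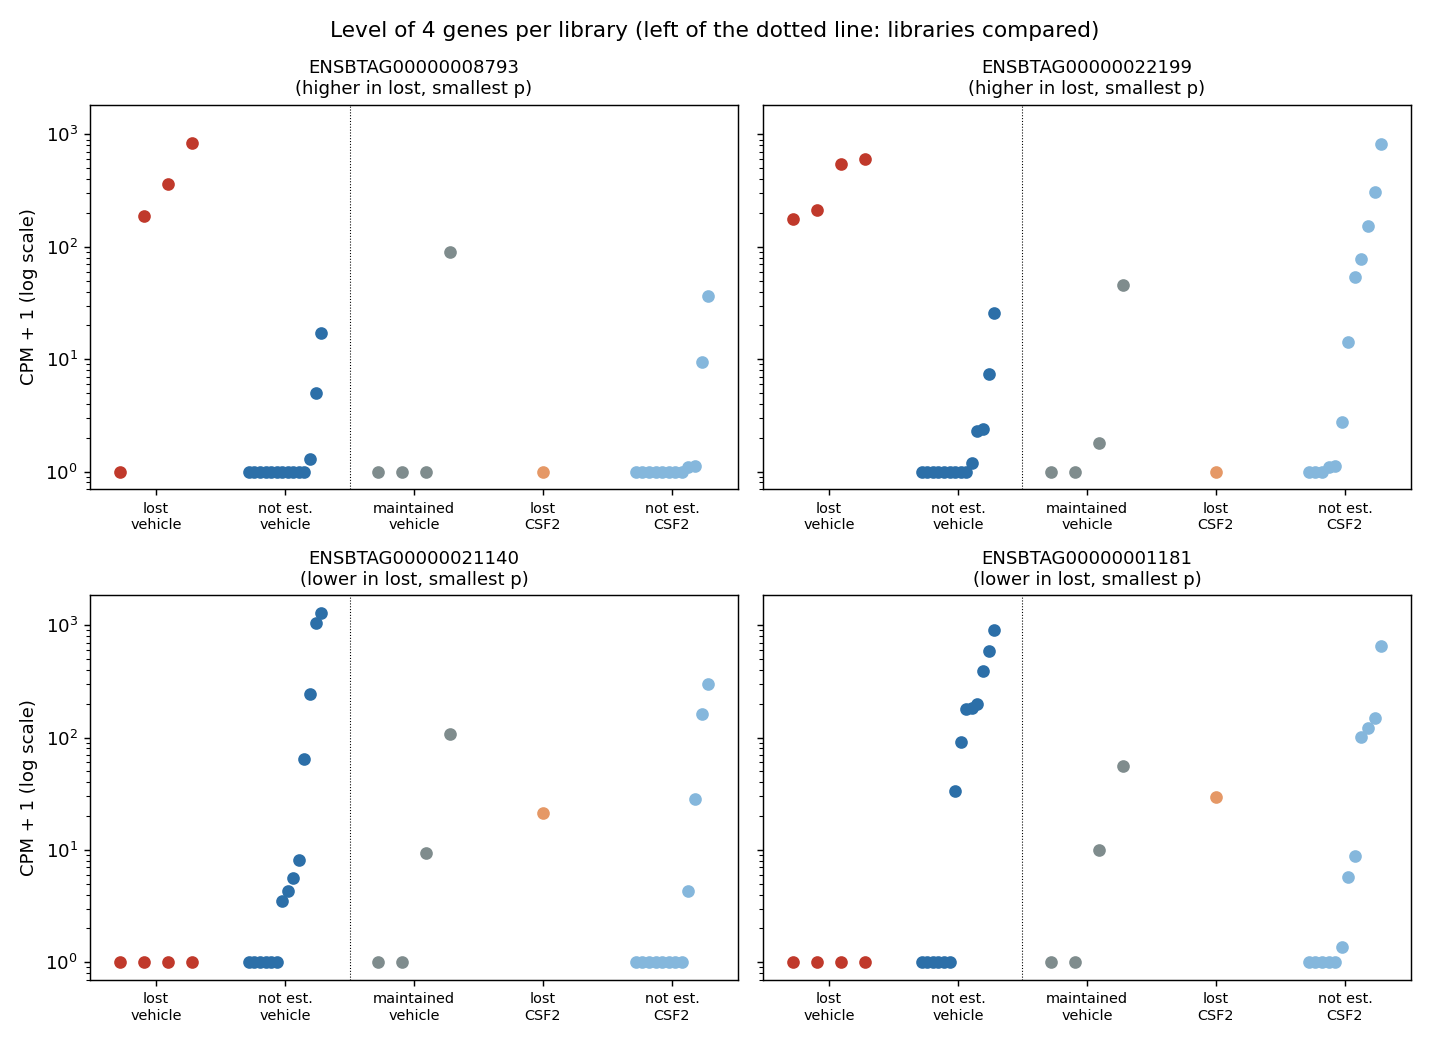
CPM + 1 on a log scale for the 4 genes with the smallest edgeR p in each direction, per library of 1000000 counts or more. Left of the dotted line are the vehicle libraries compared (4 lost, 14 not established), and right of it the 4 maintained vehicle, 1 lost CSF2 and 12 not established CSF2 libraries; ENSBTAG00000022199 lies at 176 CPM or more in all 4 lost vehicle embryos and at 0 in the lost CSF2 embryo.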

How the data were processed

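RNA of single demi-blastocysts was extracted with a micro column kit, and libraries were built with a NuGEN Ovation SoLo kit that depletes chosen bovine transcripts, as the labels' protocols state. The authors deposited whole-number read counts per Ensembl gene for 45 libraries and 24616 genes, without normalization. The submitters' processing notes name UMD3.1, bosTau8 and edgeR without a role. Not given in the sources used here are the aligner, the counter, strand use and the treatment of duplicate reads, so genes that overlap or have near copies could share reads. Columns were matched to samples by title.

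Of 24616 identifiers, 0 matched the supplied RefSeq gene table, so the 22 gene lists and the lineage scores that were planned were not run, and at most 2 identifiers per direction are named, by smallest p. The comparison, the gene lists and the depth minimum were chosen with earlier results of these data known.

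Counts of the 18 libraries were tested across genes in R 4.3.3 with edgeR 4.0.16 (filterByExpr on outcome, TMM with factors from 0.836 to 1.15, robust quasi-likelihood F test, Benjamini-Hochberg at 0.05), with limma 3.58.1 and DESeq2 1.42.0 as alternatives. Levels are CPM of the library total. Makeup measures used exact permutation tests over the 3060 assignments of the lost label, in Python 3.11.15 with scipy 1.17.1. The share of common genes and equal-depth counts were added after seeing the data. The gene tests were also run on simulated data with a far smaller spread between libraries than these data have. That run does not show how the tests behave here. A replicate is an embryo, per the labels, and whether embryos shared a sire, culture drop or day is not given. Alternatives were other tests, scalings, filters, sets of libraries and each library left out.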

Additional observations from a re-analysis of the deposited data

Results flagged for a closer look

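Lost replicate 4 stood apart within the 4 lost vehicle embryos, with 56.1% of its counts in its 100 most abundant genes and 56.8% in the 222 genes read in all 18 libraries. Among the 4 maintained vehicle embryos, replicate 7 stood apart for ENSBTAG00000008793 (88.6 CPM), ENSBTAG00000021140 (106.3 CPM) and ENSBTAG00000001181 (54.6 CPM), and replicate 6 for ENSBTAG00000022199 (44.3 CPM). Each was judged by Dixon's gap test within a group of 4, and 11 such groups were examined. The test flags about 1 in 20 groups by chance when values are normally spread, which CPM with many zeros are not. For ENSBTAG00000008793, 3 of the 4 maintained embryos had no count, so the flag was fixed in advance. For each of the other 3 named genes 2 had no count. The flags of the named genes therefore only mark the highest embryo.

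In 3 of the 4 named genes the lost CSF2 embryo lay on the other side of the not established median than the lost vehicle embryos did. It was at -7.42 CPM from the CSF2 median for ENSBTAG00000022199, at 20.4 CPM above it for ENSBTAG00000021140, and at 26.3 CPM above it for ENSBTAG00000001181. These differences between the treatments were not tested, since 1 lost embryo received CSF2.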

How the results depend on the processing

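With edgeR, 0 genes were called under DESeq2's size factors, library totals, an adjusted p of 0.10, the maintained vehicle libraries in the fit, genes read in at least 9 libraries, and each of the 18 libraries left out in turn (smallest adjusted p from 0.295 to 0.378). Counts moved under other settings, given as higher and lower in lost embryos. They were 3 and 442 with DESeq2, 6 and 1 with limma voom, 420 and 7 with no filter on low counts, 3 and 0 with all 40 libraries of 1000000 counts or more and a treatment term, and 30 and 0 with the 2 shallow vehicle libraries kept. Of the 420, 368 were read in a single lost library. Chosen after seeing the data, the genes read in at least 9 libraries gave 2 and 1 with limma voom and 0 and 62 with DESeq2, and leaving out the 3 libraries with under 2000 genes gave 0 in edgeR. The 4 named genes kept their direction under every setting that gave a value, and all 4 passed the threshold with DESeq2 and with no filter. The difference in means turned sign for some makeup measures, with no p below 0.115. With the shallow libraries it was -552400 counts in totals and 6.38 percentage points in the 100 most abundant genes. With each library left out it ran from -215600 to 732500 counts, from -484 to 372 genes read, from -5.89 to 0.482 points in the 100 most abundant genes and from -4.73 to 0.564 points in the common genes. Totals turned without lost replicate 6, genes read without lost replicate 4, and both shares without lost replicate 2, 3 or 6. Fisher's test called 0 genes at 1 or 10 counts and at equal depth. No paired analysis was possible because the 2 groups share only the number 4, which names embryos and pairs none.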
